A study of Mus musculus with 8 samples.

Results

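The 10 genes described here, Myc, Ccnd1, Cd44, Ephb2, Ephb3, Tcf7, Nkd1, Lgr4, Tnfrsf19 and Sp5, are known targets of Wnt signalling that act on cell division, on the position of cells in the crypt and on the Wnt signal itself. They were chosen by name, with earlier results of these data known. All 10 were found among the 16958 genes with values in the deposited gene table. RNA was sequenced from intestinal crypts of C57BL/6 mice labelled as 8 weeks old, in 6 libraries. The deposited column headed WT1 was read as the WT crypt library, although its header alone could also stand for the WT library of the stem cell pair, and every ratio to WT rests on that reading. The WT library had the genotype setdb1fl/fl, that is floxed Setdb1, and the protocol describes WT animals as littermates of mice with Villin-CreERT2. The libraries VEMD2, VEMD3, VEMD4, VEMD6 and VEMD8 came from setdb1 iIEC-KO mice, in which the Villin promoter drives the recombinase in the intestinal epithelium. Cells of the gut wall other than epithelium would keep the gene. All groups, WT included, were given 1 dose of tamoxifen at 800 mg/kg. SETDB1 is a methyltransferase that places repressive marks on histone H3. The labels do not spell out VEMD, and the number in each name is used only as part of the name. The labels do not say whether a library holds 1 mouse or a pool. Each group is 1 library, so no value has an error and none of the differences could be tested. Higher and lower describe these libraries alone, and neighbours in the order of a gene's levels cannot be set apart. Values are FPKM, fragments counted per length of gene and per size of library.

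Wnt proteins bind Frizzled and LRP receptors and free beta-catenin from the complex that marks it for destruction. Beta-catenin then joins TCF/LEF factors on DNA and switches on target genes. In the intestine the signal is strongest at the crypt bottom, where stem cells and Paneth cells lie, and fades as cells move up. Its targets include drivers of division such as Myc and cyclin D1, and the EphB receptors, which sort cells by repulsion from ephrin-B ligands on cells higher up. Other targets feed back on the pathway, through receptors of its amplifier R-spondin or through inhibitors.

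As a check of the labels, Setdb1 stood at 9.42 FPKM for WT and lower in each knockout library, between 3.53 for VEMD6 and 7.03 for VEMD3. All 10 general epithelial markers were detected in every library, with a summed level of 6047 to 8552 FPKM, while 12 markers of fibroblasts, endothelium and muscle summed to 1.56 to 7.63 FPKM, with 1 to 6 of them listed at 0. Ratios below are log2 ratios to WT after 1 FPKM was added to both values. Genes were counted as higher or lower when at least 2-fold from WT on that scale, which is a log2 ratio of at least 1. Genes averaging at least 1 FPKM over the 6 libraries entered the counts, 10862 in all. They include 9 of the 10 genes, each of which was above 1 FPKM in WT as well, and leave out Nkd1. The median ratio over all tested genes was 0.12 for VEMD3 and -0.23 for VEMD6, and within 0.1 of 0 in the other libraries. A rescaled ratio has this median subtracted. Setdb1 itself had log2 ratios between -0.38 for VEMD3 and -1.20 for VEMD6. It was at least 2-fold lower in VEMD6 alone, and not after rescaling, which left -0.97. A lower ratio than that of Setdb1 was found in 4.58% of tested genes for VEMD6 and 17.73% for VEMD3. The drop in Setdb1 was thus partial.

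The 10 genes differed from each other in their course. In each of VEMD2, VEMD3 and VEMD4, Cd44, Tcf7 and Ephb3 were at least 2-fold higher than WT, and in VEMD6 and VEMD8 their log2 ratios to WT lay between -0.24 and 0.64. Myc and Ccnd1 were near the WT level in the former 3 libraries and at least 2-fold lower in the latter 2. Of the 9 tested genes, VEMD2 had 3 that were at least 2-fold higher, VEMD3 had 6 and VEMD4 had 4, while the same held for 2.44%, 6.00% and 7.10% of all tested genes. None of the 9 was 2-fold lower in these libraries, against 2.39%, 4.62% and 5.04% of all tested genes. VEMD6 had 3 that were at least 2-fold lower and VEMD8 had 2, against 8.15% and 5.21% of all tested genes. None was 2-fold higher in VEMD6 or VEMD8, against 5.04% and 4.36%. After rescaling, VEMD2 had 2 higher genes, VEMD3 had 5 and VEMD6 had 2 lower ones. With 5 FPKM added in place of 1, VEMD2, VEMD3 and VEMD4 had 1, 2 and 2 higher genes. Cd44, Ephb3 and Tcf7 were the 3 genes higher in each of VEMD2, VEMD3 and VEMD4, which held for 2.03% of tested genes, and none was lower in all of them, against 1.32%. Myc and Ccnd1 were the 2 genes lower in both VEMD6 and VEMD8, as were 3.49% of tested genes, and none was higher in both, against 2.73%. No gene of the 10 was at least 2-fold from WT in the same direction in all 5 libraries, which held for 0.571% of tested genes as higher and 0.626% as lower. As these are bulk samples, fewer cells of a type and less RNA per cell cannot be told apart.

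**Figure D1:**
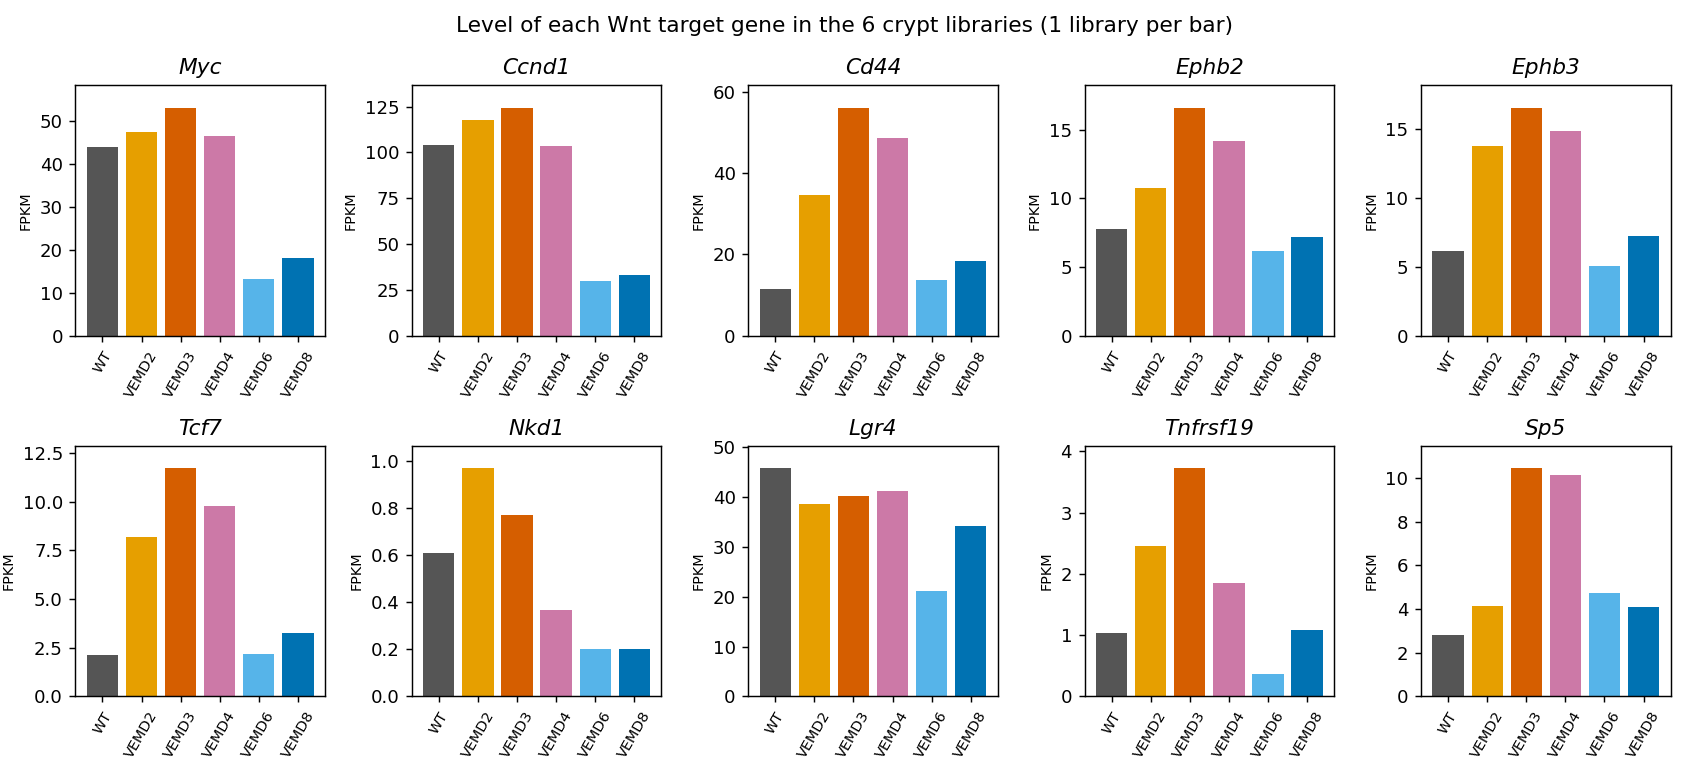
Bars give the level in FPKM (vertical axis, from 0, with its own range for each gene) of the 10 Wnt target genes in each crypt library (horizontal axis), 1 library per bar and so without error bars. In Cd44, Tcf7 and Ephb3 the bars of VEMD2, VEMD3 and VEMD4 stand above WT, while in Myc and Ccnd1 only the bars of VEMD6 and VEMD8 stand apart, below it.

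Myc, the transcription factor that drives ribosome making and growth (gene 17869, chromosome 15, 61985341 to 61990361, like all coordinates here on the build GRCm38), was at 43.99 FPKM for WT. Its level was 47.5 for VEMD2, 53.07 for VEMD3 and 46.52 for VEMD4, then 13.24 for VEMD6 and 18.16 for VEMD8. The former 3 libraries lay slightly above WT and the latter 2 far below it. Each of the former exceeded both of the latter, which held for 43.8% of all tested genes. The log2 ratio was 0.11, 0.27 and 0.08 for VEMD2, VEMD3 and VEMD4, -1.66 for VEMD6 and -1.23 for VEMD8. Rescaling left -1.43 for VEMD6. In that library only 1.7% of tested genes had a lower ratio than Myc, and in VEMD8 3.31%.

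Ccnd1 encodes cyclin D1, which with CDK4 and CDK6 takes cells out of the G1 phase (gene 12443, chromosome 7, 144929931 to 144939831). It was the most abundant of the 10 per length in every library but VEMD8, where Lgr4 was at 34.15 FPKM. Its level was 103.86 FPKM for WT, 117.66 for VEMD2, 124.34 for VEMD3 and 103.27 for VEMD4. In VEMD6 it was at 30.08 and in VEMD8 at 33.17. These 2 libraries were close to each other and below the other 4. Leaving WT aside, that split of the libraries was met by 43.8% of all tested genes. The log2 ratio to WT was -1.75 for VEMD6 and -1.62 for VEMD8, or -1.52 and -1.56 after rescaling, and it lay between -0.01 and 0.26 in the other 3. Over the 6 libraries the log2 levels of Myc and Ccnd1 had a Pearson r of 0.99. This describes 6 points that all genes share, and it has no test.

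Among genes that make up the G1 machinery around cyclin D1, the list of 20 had 19 tested members. Its inhibitors differed from WT in opposite directions. Cdkn1a, the inhibitor p21, was at 87.61 FPKM for WT, 200.84 for VEMD2, 311.31 for VEMD3, 294.65 for VEMD4, 239.95 for VEMD6 and 124.79 for VEMD8, at least 2-fold higher in all but VEMD8. Cdkn2c, an inhibitor of CDK4 and CDK6, was lower in every knockout library, from 9.98 for WT to 1.68 for VEMD6, and at least 2-fold lower in 4. Cdkn2b, of the same inhibitor family, was at 51.86 for WT and 12.84 for VEMD4, also at least 2-fold lower in 4 libraries, or in 3 after rescaling, where VEMD6 was left at -0.85. The medians of the list from VEMD2 to VEMD8 were 0.25, 0.16, -0.07, -0.63 and -0.35. In the list as a whole, 2, 3, 3, 1 and 1 genes were at least 2-fold higher, in the order from VEMD2 to VEMD8, and 0, 3, 4, 7 and 3 were lower. The 7 lower genes of VEMD6 became 3 after rescaling. Of all tested genes, 2.44%, 6.00%, 7.10%, 5.04% and 4.36% were at least 2-fold higher in the same order. The shares that were lower were 2.39%, 4.62%, 5.04%, 8.15% and 5.21%. These shares, taken before rescaling, also apply to the counts against WT of the lists that follow.

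Textbook targets of Myc had another course than Myc itself. All 20 were tested, and their median log2 ratio was 0.62 for VEMD2, 0.81 for VEMD3, 0.55 for VEMD4, -0.36 for VEMD6 and 0.20 for VEMD8, with a rescaled value of -0.12 for VEMD6. In VEMD2, VEMD3 and VEMD4, 4, 6 and 3 of them were at least 2-fold higher, or 3, 4 and 2 after rescaling. In VEMD6 2 were at least 2-fold lower, and 0 after rescaling, and in VEMD8 0 were called in either direction. Cad, which opens pyrimidine synthesis, was at 8.32 FPKM for WT, 21.79 for VEMD2, 26.13 for VEMD3, 19.37 for VEMD4, 9.63 for VEMD6 and 14.18 for VEMD8. Mybbp1a, a nucleolar protein, had ratios of 1.19, 1.41 and 1.13 for VEMD2, VEMD3 and VEMD4 and -0.15 and 0.51 for VEMD6 and VEMD8. Srm, spermidine synthase, had 1.14, 1.33 and 1.03 in the former 3, or 0.999 for VEMD4 after rescaling, which is just short of 2-fold. In VEMD8 these 3 targets were above WT while Myc itself was at -1.23.

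Of the partners and relatives of Myc, 11 of 12 were tested, with medians of -0.12, -0.49, -0.23, -0.08 and -0.29 from VEMD2 to VEMD8. Rescaled, that of VEMD6 was 0.16. At least 2-fold higher were 1, 1, 0, 1 and 1 of them, and 1, 2, 2, 3 and 3 were at least 2-fold lower. Mxd3, a factor that competes with Myc for its partner Max, was at 3.75 FPKM for WT and lower in all 5 knockout libraries, between 0.59 for VEMD3 and 2.01 for VEMD2. Mlxipl, the sugar-sensing factor ChREBP, was at 47.68 for WT and 17.7 for VEMD8. Mga, a large protein that binds Max, was higher than WT throughout, at 2.5 for WT, 8.03 for VEMD3 and 4.18 for VEMD6.

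Cd44, a surface receptor for hyaluronan (gene 12505, chromosome 2, 102811141 to 102901669), had the largest log2 ratio to WT of the 10 with 1 FPKM added. Its level was 11.39 FPKM for WT, 34.55 for VEMD2, 56.06 for VEMD3, 48.58 for VEMD4, 13.71 for VEMD6 and 18.29 for VEMD8. WT was the lowest of the 6 libraries and VEMD6 came close to it. Without a pseudocount, VEMD2, VEMD3 and VEMD4 were 3.03, 4.92 and 4.27 times the WT level. On that scale Tcf7 was further from WT, at 5.49 times in VEMD3. The log2 ratios of Cd44 were 1.52, 2.20 and 2.001 in these 3 libraries and 0.25 and 0.64 for VEMD6 and VEMD8, or 0.48 and 0.70 after rescaling. In VEMD2, 99.24% of tested genes had a lower ratio than Cd44. The table has 1 value per gene, so the splice forms of CD44 were not separated.

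Tcf7 encodes TCF1, a DNA-binding partner of beta-catenin (gene 21414, chromosome 11, 52246527 to 52283383). It was at 2.13 FPKM for WT, 8.2 for VEMD2, 11.7 for VEMD3, 9.77 for VEMD4, 2.18 for VEMD6 and 3.26 for VEMD8. The libraries fell in the same order as for Cd44, and WT and VEMD6 were nearly equal. The log2 ratios were 1.56, 2.02 and 1.78 for VEMD2, VEMD3 and VEMD4 and 0.02 and 0.44 for VEMD6 and VEMD8. With 5 FPKM added, which weighs more on a gene of this level, the ratio in VEMD2 was 0.89. The gene is known to give a long form and a shorter form without the beta-catenin binding part, which 1 value per gene does not separate.

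Both Cd44 and Tcf7 are also strong in T cells, so T cell markers were read beside them. The summed level of 12 such markers was 22.41 FPKM for WT, 16.8 for VEMD2, 25.64 for VEMD3, 33.11 for VEMD4, 16.35 for VEMD6 and 14.11 for VEMD8, with none listed at 0. Cd3e, a chain of the T cell receptor complex, was at 2.54 for WT, 1.71 for VEMD2, 3.32 for VEMD3 and 4.39 for VEMD4. Of the 8 tested T cell markers, 6 were below WT in VEMD2, while Cd8b1 and Lck were above it, and 7 were above WT in VEMD4. In VEMD2, Cd44 and Tcf7 were 3.03 and 3.85 times the WT level. The part of T cells in these levels was not tested. Markers of leukocytes in general summed to 11.72 to 29.55 FPKM, lowest in VEMD6 and highest in VEMD4, with 1 or 2 of 12 at 0 in each knockout library and none in WT.

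The EphB receptors bind ephrin-B ligands and keep crypt cells at their level along the axis. Ephb3 (gene 13845, chromosome 16, 21204620 to 21223309) was at 6.17 FPKM for WT, 13.76 for VEMD2, 16.54 for VEMD3, 14.88 for VEMD4, 5.06 for VEMD6 and 7.23 for VEMD8. Ephb2 (gene 13844, chromosome 4, 136647536 to 136836326) was at 7.78, 10.78, 16.6, 14.21, 6.2 and 7.16 in the same order. Each was highest in VEMD3 and lowest in VEMD6, and in VEMD2 the ratio of Ephb3, 1.04, stood well above that of Ephb2, 0.42. In VEMD3 the ratios were 1.29 and 1.003 and in VEMD4 1.15 and 0.79. In VEMD6 and VEMD8 both stayed between -0.29 and 0.20. Both calls nearest to 2-fold were lost on rescaling: after rescaling, Ephb3 in VEMD2 was at 0.95 and Ephb2 in VEMD3 at 0.88. With 5 FPKM added, every call of these genes was lost. Ephb3 was then at 0.75, 0.95 and 0.83 for VEMD2, VEMD3 and VEMD4, and Ephb2 at 0.76 for VEMD3.

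Ligands and another receptor of the family were read beside them. Efnb1 and Efnb2, ephrin-B ligands known to be stronger towards the villus, were within 0.41 of WT on the log2 scale in all 5 libraries, or within 0.64 after rescaling. Efnb1 was at 29.58 FPKM for WT and 29.01 to 33.25 in the knockouts, and Efnb2 at 20.66 for WT, 19.39 for VEMD2 and 27.7 for VEMD6. Efnb3, the third ephrin-B ligand, was too low to be tested, at 0.49 for WT, 1.04 for VEMD2, 1.56 for VEMD3, 1.14 for VEMD4, 0.40 for VEMD6 and 0.82 for VEMD8. It was highest in VEMD3 and lowest in VEMD6, as Ephb2 and Ephb3 were. Ephb4, a receptor best known from veins, was lower in every knockout library, at 27.44 for WT, 24.14 for VEMD2, 19.61 for VEMD3, 15.26 for VEMD4, 10.14 for VEMD6 and 12.38 for VEMD8. Its log2 ratio of -0.81 for VEMD4 was opposite in sign to those of Ephb2 and Ephb3. Of the 6 genes on this list 3 were tested, and Ephb4 was the only one called, lower in VEMD6 and VEMD8.

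**Figure D2:**
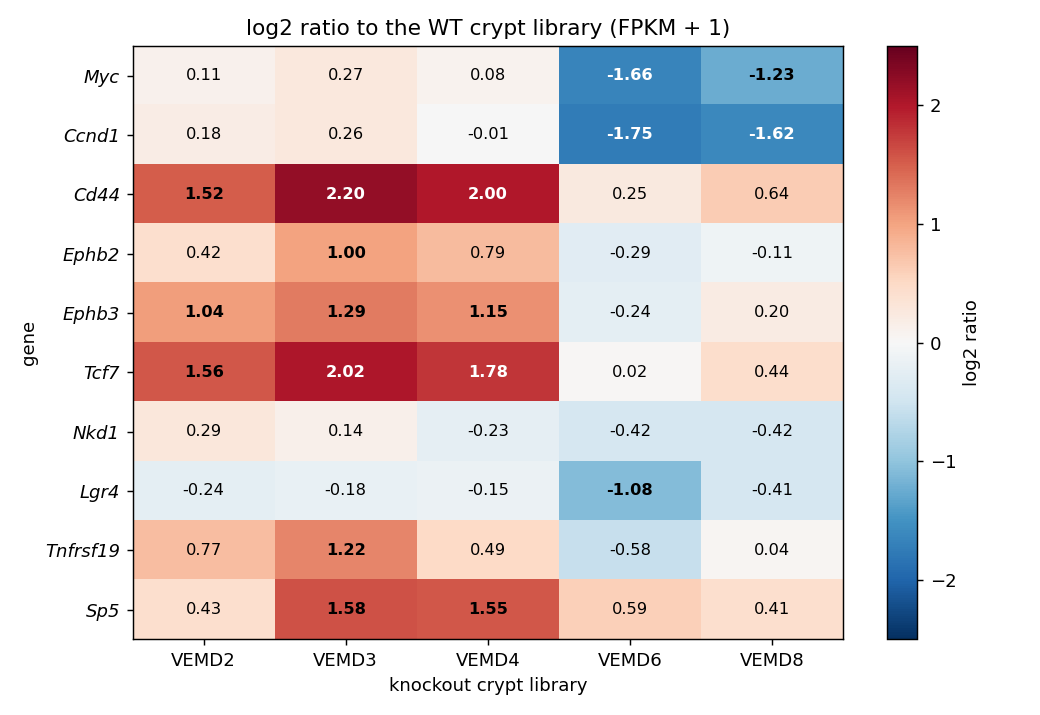
Cells give the log2 ratio of each knockout crypt library (columns) to the WT library for the 10 genes (rows), after 1 FPKM was added to both, with red for higher, blue for lower and bold figures for a ratio of at least 1 in size. The bold red cells lie in VEMD2, VEMD3 and VEMD4, up to 2.20 for Cd44, and the deepest blue cells are Myc and Ccnd1 in VEMD6 and VEMD8.

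Sp5 is a zinc finger repressor that Wnt signalling switches on directly (gene 64406, chromosome 2, 70474923 to 70477726). Its level was 2.82 FPKM for WT, 4.13 for VEMD2, 10.44 for VEMD3, 10.16 for VEMD4, 4.74 for VEMD6 and 4.08 for VEMD8. Only VEMD3 and VEMD4 stood apart, at log2 ratios of 1.58 and 1.55, or 0.98 and 0.96 with 5 FPKM added, and the other 3 lay between 0.41 and 0.59. Sp5 was the only tested gene of the 10 for which VEMD2 did not exceed both VEMD6 and VEMD8. From VEMD2 to VEMD3 its log2 ratio was 1.16.

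Tnfrsf19, also known as TROY, is a receptor of the TNF receptor family found on crypt stem cells (gene 29820, chromosome 14, 60963834 to 61046855). It was at 1.03 FPKM for WT, 2.45 for VEMD2, 3.72 for VEMD3, 1.85 for VEMD4, 0.36 for VEMD6 and 1.09 for VEMD8. VEMD3 was highest and VEMD6 lowest, 10.3-fold apart, and VEMD8 was level with WT. At such levels the pseudocount weighs on the ratio. In VEMD3 it was 1.22 with 1 FPKM added and 0.53 with 5. With 0.1 FPKM added, the ratio was 1.17 for VEMD2 and -1.30 for VEMD6, against 0.77 and -0.58 with 1.

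The sequences before the starts of these genes were searched for letters of the site that TCF/LEF factors bind. RefSeq promoters on GRCm38.p6 were found for 8 of the 10 genes, 10 promoters in all, and the 250 bases before each start were searched on both strands. Only CTTTGAA and CTTTGAT were counted as the full motif, and other endings were not. The full motif so defined occurred before Sp5 and before a start of Tnfrsf19, in 2 of 10 promoters, against 7.48% of all 32851 promoters. Its core of 5 letters, CTTTG, which the full motif contains, occurred in 3 of 10 promoters against 48.6% of all. Sp5 held 4 cores, and 4 or more were found in 0.773% of all promoters. The 3 stretches that hold a core, a smaller share than among all promoters, are printed as examples. They run 5′ to 3′ on the strand of the gene, with the core on either strand in capitals. They are chr2:70474673-70474922 (plus strand) for Sp5, chr2:102901666-102901915 (minus strand) for Cd44 and chr14:61037988-61038237 (minus strand) for Tnfrsf19.
Sp5: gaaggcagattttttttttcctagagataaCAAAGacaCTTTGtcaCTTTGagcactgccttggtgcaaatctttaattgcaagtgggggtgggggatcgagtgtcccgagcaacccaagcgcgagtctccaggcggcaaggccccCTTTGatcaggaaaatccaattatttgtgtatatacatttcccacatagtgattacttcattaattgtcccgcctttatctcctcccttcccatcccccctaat
Cd44: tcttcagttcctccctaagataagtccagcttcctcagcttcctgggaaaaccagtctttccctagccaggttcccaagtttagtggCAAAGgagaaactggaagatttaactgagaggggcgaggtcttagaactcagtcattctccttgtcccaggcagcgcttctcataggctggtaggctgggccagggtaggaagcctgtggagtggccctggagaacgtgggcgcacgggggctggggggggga
Tnfrsf19: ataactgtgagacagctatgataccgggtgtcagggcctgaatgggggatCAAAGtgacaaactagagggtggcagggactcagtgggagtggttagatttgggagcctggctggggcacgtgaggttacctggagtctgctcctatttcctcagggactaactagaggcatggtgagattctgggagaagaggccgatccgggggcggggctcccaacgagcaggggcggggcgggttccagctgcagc
The full motif of Sp5 starts 104 bases before the gene's start, and that of Tnfrsf19 202 bases before a start that lies inside the gene. The window before the outermost start of Tnfrsf19 held neither the full motif nor the core. Ephb2, Ephb3, Tcf7, Lgr4 and Nkd1 held neither motif in these windows. The windows of Ephb2, Tcf7 and Nkd1 lie inside the spans given for these genes, and that of Ephb3 partly so. For these genes the full 250 bases before the outermost start were therefore not searched. Genes with and without a match were thus among those 2-fold higher in VEMD3. A match describes letters only, and binding was not measured.

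Lgr4, a receptor for R-spondins (gene 107515, chromosome 2, 109917647 to 110014257), was the member with the narrowest range. It was at 45.78 FPKM for WT, 38.57 for VEMD2, 40.26 for VEMD3, 41.18 for VEMD4, 21.13 for VEMD6 and 34.15 for VEMD8. WT was the highest library, and only VEMD6 stood clearly below, at a log2 ratio of -1.08, or -0.85 after rescaling. Nkd1, an inhibitor that binds Dishevelled (gene 93960, chromosome 8, 88521342 to 88594887), was too low to be tested, at 0.61 for WT, 0.97 for VEMD2, 0.77 for VEMD3, 0.37 for VEMD4 and 0.2 in both VEMD6 and VEMD8. No reading of its ratios is made at that level.

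Setting the knockout libraries against each other leaves WT out. From VEMD4 to VEMD6 all 9 tested genes were lower, and 7 were at least 2-fold lower, against 9.62% of all tested genes, while none was 2-fold higher, against 4.87%. Their median log2 ratio was -1.39 and that over all tested genes -0.28. After rescaling, all 9 were still lower and 5 at least 2-fold. In this comparison Myc, Ccnd1, Cd44 and Tcf7 had nearly the same ratio, at -1.74, -1.75, -1.75 and -1.76, although they differed when set against WT. Ephb3 was at -1.39, Ephb2 at -1.08, Tnfrsf19 at -1.07, Sp5 at -0.96 and Lgr4 at -0.93. From VEMD6 to VEMD8 none was 2-fold higher or lower, against 1.45% and 2.22% of all tested genes, and 8 of 9 were higher, or 7 after rescaling, with a median of 0.42 against 0.18 over all tested genes. For 8 of the 9 genes, each of VEMD2, VEMD3 and VEMD4 exceeded both VEMD6 and VEMD8, which held for 43.8% of all tested genes. The comparisons in this paragraph were chosen with the values known.

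**Figure D3:**
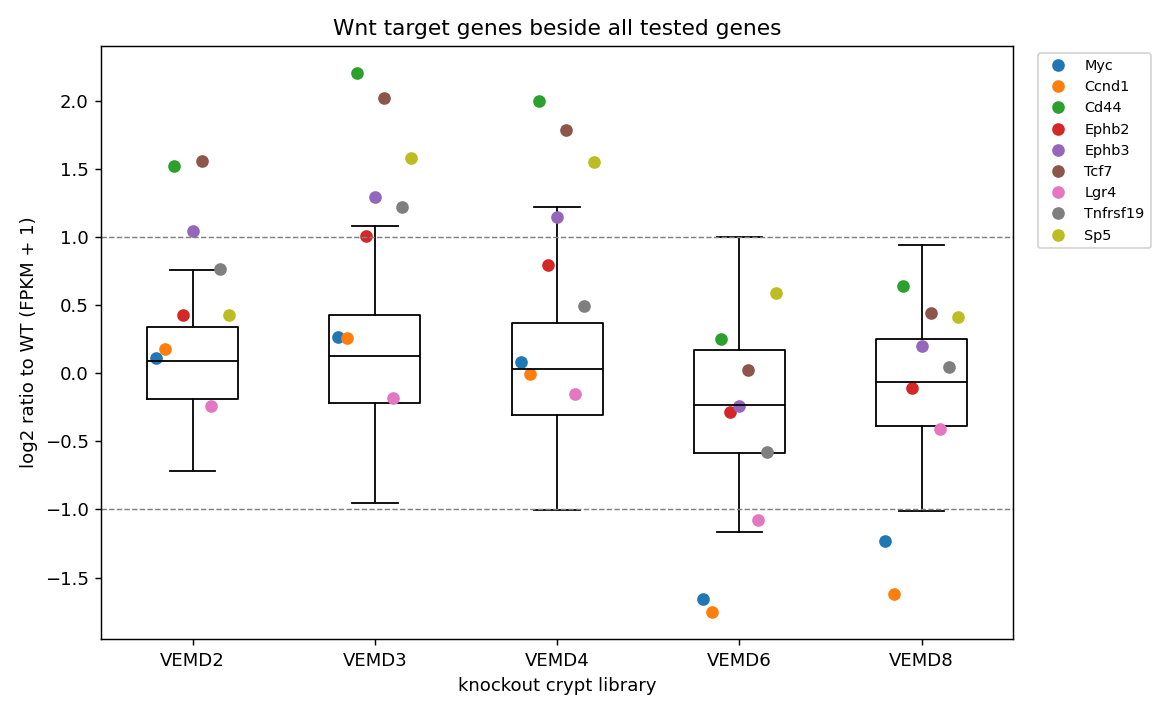
Points give the log2 ratio to WT (vertical axis) of the 9 tested Wnt target genes in each knockout crypt library (horizontal axis), beside a box for all 10862 tested genes with the median, the quartiles and whiskers to the 5th and 95th percentile. Dashed lines mark a 2-fold difference. Cd44 and Tcf7 lie above the whiskers in VEMD2, VEMD3 and VEMD4, and Myc and Ccnd1 below them in VEMD6 and VEMD8.

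The rest of the Wnt pathway was read list by list. Of 16 genes for Dishevelled, the destruction complex and beta-catenin, all tested, VEMD2, VEMD3, VEMD4 and VEMD6 had none that was 2-fold from WT, and the medians lay between 0.01 and 0.19. The single exception in VEMD8 was Tnks, a tankyrase that breaks down Axin, at 3.49 FPKM for WT, 8.5 for VEMD8 and 6.3 to 7.23 in the other knockouts. It also passed 2-fold in VEMD6 after rescaling, at 1.07. Ctnnb1, the gene of beta-catenin, was at 270.51 for WT and between 247.71 and 306.55 in the knockouts.

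Receptors for Wnt and R-spondins had 9 tested members of 18, with medians of 0.09, 0.16, -0.03, -0.45 and -0.24 from VEMD2 to VEMD8. The list leaves out Lgr4, which is 1 of the 10 genes and was itself at -1.08 for VEMD6. On the list the stem cell receptor Lgr5 alone was called, lower in VEMD6 and VEMD8. It was at 2.1 FPKM for WT, 1.6 for VEMD2, 0.71 for VEMD3, 1.07 for VEMD4, 0.41 for VEMD6 and 0.32 for VEMD8, so that in VEMD3 it was lower while its relative Lgr4 was at 40.26 against 45.78. After rescaling its ratio in VEMD6 was -0.90. Of 23 ligand genes only Wnt3, made by Paneth cells, was tested, at 2.26 for WT, 3.28 for VEMD2, 3.03 for VEMD3, 1.72 for VEMD4, 0.28 for VEMD6 and 0.74 for VEMD8. The other 18 with values were under a mean of 1 FPKM.

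Nuclear partners of beta-catenin had 10 tested members of 14, with medians of 0.09, 0.20, 0.01, -0.28 and -0.43, where that of VEMD4 was -0.02 after rescaling. Ctnnbip1, which keeps beta-catenin off TCF factors, was lower in every knockout library, at 14.89 FPKM for WT and between 4.64 for VEMD4 and 8.1 for VEMD2. It was at least 2-fold lower in VEMD4 and VEMD8, or in VEMD3 and VEMD4 after rescaling. Tle3, a corepressor of TCF factors, was at 6.04 for WT, 10.92 for VEMD4 and 2.29 for VEMD8. No nuclear partner on this list was 2-fold higher in any library. The list leaves out Tcf7, which is 1 of the 10 genes and was higher in VEMD2, VEMD3 and VEMD4.

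A list of inhibitors of the pathway, many of them Wnt targets themselves, had 6 tested members of 20, with medians of 0.48, 0.57, 0.56, -0.16 and -0.05. Rescaled, that of VEMD6 was 0.08 and that of VEMD8 0.01. Axin2, the scaffold that is a standard readout of the pathway, was at 18.47 FPKM for WT, 23.88 for VEMD2, 27.34 for VEMD3, 19.89 for VEMD4, 8.37 for VEMD6 and 10.33 for VEMD8. Its log2 ratios of 0.35, 0.54 and 0.10 and then -1.06 and -0.78 are on the side of Myc and Ccnd1 rather than of Cd44. After rescaling, that of VEMD6 was -0.82, short of 2-fold, unlike those of Myc and Ccnd1. Tiam1, an activator of Rac and a Wnt target that is itself no inhibitor of the pathway, was at 3.84 for WT, 9.19 for VEMD3 and 9.83 for VEMD4. Kremen2, a receptor for Dickkopf proteins, was at 1.3 for WT and 4.4 for VEMD4. In VEMD3 and VEMD4, 2 of the 6 were at least 2-fold higher, but none in VEMD3 after rescaling. Tiam1 was 1 of the 2 in both libraries, beside Rnf43, a ligase that removes Frizzled, in VEMD3 and Kremen2 in VEMD4.

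**Figure D4:**
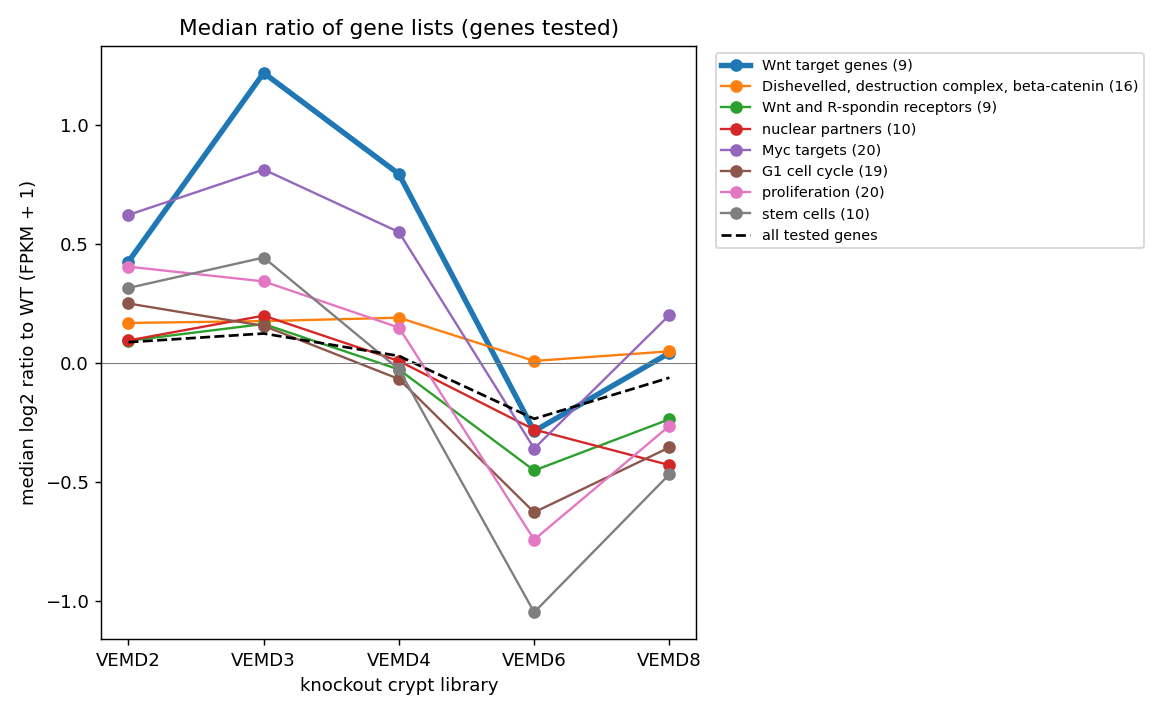
Lines join the median log2 ratio to WT (vertical axis) of 8 gene lists and of all tested genes (dashed) across the knockout crypt libraries (horizontal axis), with the number of tested genes in brackets. The Wnt target genes have the highest median in VEMD3 and VEMD4, at 1.22 and 0.79, and lie near all tested genes in VEMD6 and VEMD8, at -0.29 and 0.04.

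As a set, the 9 tested genes had a median log2 ratio of 0.43 for VEMD2, 1.22 for VEMD3, 0.79 for VEMD4, -0.29 for VEMD6 and 0.04 for VEMD8, against 0.09, 0.12, 0.03, -0.23 and -0.06 over all tested genes. The medians of VEMD6 and VEMD8 stand between genes far below WT and genes at or above it. Stem cell markers, 10 genes that share none of the 10 targets, had medians of 0.31, 0.44, -0.03, -1.05 and -0.47. These markers went in both directions: 3 were at least 2-fold higher and 1 lower in VEMD3, and 2 were higher and 2 lower in VEMD4. They held 7 genes at least 2-fold lower in VEMD6, or 2 after rescaling. Proliferation genes, 20 in number, had medians of 0.40, 0.34, 0.15, -0.74 and -0.26. In VEMD6 6 of them were at least 2-fold lower, and none after rescaling. In VEMD6 the stem cell markers ranged from -1.89, for Olfm4, to -0.32 and the proliferation genes from -1.23 to -0.10, beside -1.66 for Myc and -1.75 for Ccnd1.

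Other cell types of the crypt differed between the libraries as well, and their part in the results above was not tested. The summed level of 10 Paneth cell markers was 28386 FPKM for WT, 40283 for VEMD2, 20639 for VEMD3, 8155 for VEMD4, 2294 for VEMD6 and 3507 for VEMD8. In VEMD4, 7 of the 10 Paneth markers were at least 2-fold lower than WT and 1 was at least 2-fold higher. In VEMD2, 9 of the 10 were above WT, none of them 2-fold. Enterocyte markers, 10 genes, summed to 10875 for WT, 4400 for VEMD2, 3419 for VEMD3, 8152 for VEMD4, 20747 for VEMD6 and 9494 for VEMD8. The order of these sums is near the reverse of that of Cd44 and Tcf7 except in WT. Single markers did not all follow the sum: in VEMD6, 4 were at least 2-fold higher than WT and 2 at least 2-fold lower. Goblet markers, 8 genes, summed to 1171 for VEMD6 and 1971 for VEMD8 against 3650 to 6163 in the other 4 libraries. For 8 enteroendocrine markers the sums were 97.29 for VEMD6 and 34.33 for VEMD8 against 311.41 to 628.11. No marker of these 4 cell types was listed at 0 in any library.

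Over the 6 libraries, the log2 levels of Cd44, Ephb2, Ephb3 and Tcf7 had Pearson r of 0.94 to 0.99 with each other. With these 4, Tnfrsf19 had 0.87 to 0.94, Sp5 0.73 to 0.86 and Myc 0.63 to 0.81. With Lgr4 and Ccnd1, Sp5 had 0.11 and 0.33. Among 8188 other genes averaging at least 5 FPKM, those most like each tested member by the same measure over the same 6 libraries were as follows. With Cd44 they were Sesn2, a stress-induced sestrin, at r of 0.996 and Arhgap35 at 0.995. Sesn2 was at 2.52 FPKM for WT, 19.23 for VEMD3 and 3.26 for VEMD6. With Ccnd1 they were Mreg, melanoregulin, and Gadd45g, a growth arrest gene, both at 0.999, and with Myc Pip5k1b, a lipid kinase, at 0.999 and Fam89b at 0.997. Gadd45g was at 10.05 for WT, 11.08 for VEMD3 and 3.32 for VEMD6. Likeness in shape is not likeness in size: Pip5k1b was at 31.72 for WT and 26.08 for VEMD6, a far smaller difference than that of Myc.

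The phosphatase Ptp4a3 was nearest to Ephb2, at 0.997, with 2.37 FPKM for WT and 15.46 for VEMD3, followed by Rhbdf2 at 0.992. Nearest to Ephb3 were the phosphate carrier Slc20a2 at 0.999 and Pwp2, a factor of ribosome making, at 0.996. Pdlim5 and Exoc4, a subunit of the exocyst, stood nearest to Tcf7, at 0.9995 and 0.998. For Lgr4 the nearest were Ccnl1 at 0.991 and the histone gene H3f3b at 0.986, for Tnfrsf19 Yeats2 and Usp22, both at 0.998, and for Sp5 the cholesterol carrier Npc1 at 0.988 and Nfkb1 at 0.986. High values were common: 194 of the 8188 genes had r of at least 0.95 with Cd44, 413 with Myc and 578 with Tnfrsf19, but 14 with Sp5.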

How the data were processed

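The authors deposited FPKM for each crypt library in a column of its own, given to 2 decimals and named as FPKM per the file headers. HISAT2, featureCounts and edgeR with GRCm38 and mm10 are named per the submitters' processing notes, without versions or roles. Crypt libraries were made for a BGI-500 instrument, per the labels' protocols. Of 20718 lines, 3760 hold no value. Of the rest, 16916 got a symbol by gene identifier from RefSeq on GRCm38.p6, also the source of coordinates. The column headed WT1 was taken as WT because the protocol lists WT with the VEMD libraries, and the header alone does not exclude the WT stem cell library.

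Log2 ratios, counts, medians and Pearson r were computed with Python 3.11.15, pandas 2.3.3 and numpy 2.4.6 and tested on simulated data. The 10 genes, the 9 lists of pathway genes and the 10 lists of cell type markers were chosen with earlier results of these data known. Named were up to 3 genes per pathway list, those at least 2-fold from WT in the most libraries, and the 2 genes most like each tested member. Cd3e, Cd8b1, Lck, Efnb1, Efnb2, Efnb3, Ctnnb1, Rnf43 and Olfm4 were added outside that rule, with their values known. Depth is unknown: ratios between low values showed no clear steps of whole reads, as at most 6.43% to 8.72% of low genes shared a bin. The alternatives were other pseudocounts, rescaling to the median gene or to a sum of 1000000, other filters and left-out libraries. The stem cell pair was not analysed here. The 2 columns of values in the deposited repeat table name no single sample and were not used.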

Additional observations from a re-analysis of the deposited data

How the results depend on the processing

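No paired analysis was possible because no group has more than 1 library. With 5 FPKM added, the genes at least 2-fold higher numbered 1 in VEMD2, 2 in VEMD3 and 2 in VEMD4, since a larger pseudocount shrinks the ratios of low genes. Counts of lower genes, and medians as unlogged folds, stayed within 1.5 times of the reported values under every alternative run on them: 0.1 or 5 FPKM added, both rescalings, no filter and a mean of at least 5 FPKM. On the log2 scale the median of VEMD3 fell to 0.76 with 5 FPKM added, that of VEMD6 was -0.05 after rescaling to the median gene, and that of VEMD8, at 0.04, was -0.03 without the filter and 0.22 rescaled to a sum of 1000000. Leaving out any 1 knockout library kept the number of genes at least 2-fold from WT in all remaining libraries at 0 in both directions. In alternatives chosen after seeing the data, it was 3 higher without VEMD6 and VEMD8, against 2.03% of tested genes, and 2 lower without VEMD2, VEMD3 and VEMD4, against 3.49%. Of the 50 single ratios, 9 lost the 2-fold mark with 5 FPKM added, 3 after rescaling to the median gene and 1 after rescaling to a sum of 1000000, 4 gained it with 0.1 FPKM added and 1 with that sum (Ephb2 in VEMD4, at 1.01), and none turned its sign while past 2-fold. Depth is unknown, so counting error cannot be given, and it weighs most on Nkd1 and Tnfrsf19.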
